A study of Chlorocebus aethiops with 12 samples.

Results

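The effect of dexamethasone, a synthetic glucocorticoid, was measured in COS-1 cells that carried the Y30E form of the human glucocorticoid receptor (GR). The comparison set the 3 arrays titled Y30E-DEX against the 3 titled Y30E-DMSO, 6 of the 12 arrays of the series. COS-1 is a kidney line of the African green monkey. All 6 samples came from cells transiently transfected with mouse CCRP bearing a V5 tag, together with FLAG-tagged human GR in which glutamate replaces a tyrosine of the N-terminal part (Y30E). CCRP is a co-chaperone of nuclear receptors whose human counterpart is DNAJC7. Treatment with 100 nM dexamethasone, or with 0.1% DMSO as the vehicle, began 40 h after transfection and lasted 6 h. The other 6 arrays, 3 with each treatment, held the Y30F receptor, with phenylalanine in place of the same tyrosine, together with the same CCRP construct. Another label lists only the receptor construct for Y30E samples and only the CCRP construct for Y30F samples. The descriptions, which list both constructs for each, were followed. Cells without a transfected receptor, or with the unmutated one, were not analysed here, so the response of the transfected receptor and that of any receptor of the COS-1 cells themselves cannot be told apart. The labels do not say whether the 3 replicates were separate cultures, so the p-values measure the spread between these samples, which may be technical.

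GR waits in the cytoplasm in a complex with HSP90, HSP70 and their co-chaperones, and the hormone frees it to enter the nucleus. There it binds response elements and raises nearby genes, among them PER1, FKBP5 and SGK1 in many cell types, and it also lowers transcription driven by AP-1 and NF-kB. In kidney cells its known targets include regulators of sodium transport.

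Each array held 43376 spots that were not controls, of which 60.5% to 67.0% were well above background, and none of these was saturated. After a filter on dim probes, 20037 features were tested, each a transcript record or, without a record, a probe. Signals are given scaled to a common 75th percentile of 808 on every array. The files name records and no genes. Gene symbols were assigned by hand from the RefSeq record, after the values had been seen, for records of known identity, and no gene table was available to check them. Human probes were hybridised with monkey RNA, so a difference in signal between probes may not reflect a difference in RNA. The kidney epithelial markers found on the array, among them KRT8, KRT18, EPCAM, PAX8 and CDH16, were well above background on all 6 arrays in 8 of 8 cases. Of the mesenchymal markers 6 of 8 were, with COL1A2 and COL3A1 as the exceptions. PTPRC of immune cells and PECAM1 of endothelium were on no array, whereas 5 of 6 immune markers, 2 of 5 endothelial, 2 of 4 hepatocyte and 1 of 4 neuronal markers gave a signal on all 6. Of all markers tested only PDGFRB passed the test below, with a change of 0.30 ± 0.056 (log2, SE; limma adjusted p = 0.0226), and not with slide as a block (adjusted p = 0.304).

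Dexamethasone changed 423 of the 20037 features in Y30E cells, 2.11% of those tested (limma, Benjamini-Hochberg adjusted p under 0.05). Of these, 299 were higher (1.49%) and 124 lower (0.619%). In all 423 the Y30E arrays did not overlap between treatments, as was so for 22.6% of all features. Lack of overlap in a changed feature therefore adds nothing to its call. The median change was 0.48 (log2) among the higher features and -0.46 among the lower ones, and 31 higher and 16 lower features had a fitted change of at least 2-fold, 20 and 7 of them well above background on all 6 arrays (called bright from here on). The count fell to 184 without Y30E-DMSO replicate 1, 204 without replicate 2, and 228, 255 and 243 without Y30E-DEX replicates 1, 2 and 3. It rose to 596 without Y30E-DMSO replicate 3, the only DMSO array on the slide of the Y30E-DEX arrays. The standard error had a median of 0.080 (log2) over all features, 0.078 among bright features and 0.29 among the rest. Bright features made up 391 of the changed ones (2.05% of 19097 tested, 1.47% higher and 0.581% lower), and 32 were not bright (3.4% of 940 tested). The filter needed signal in only 1 group, so features that were not bright could enter through a group where they were high. The shares of bright and other features are therefore not comparable.

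**Figure D1:**
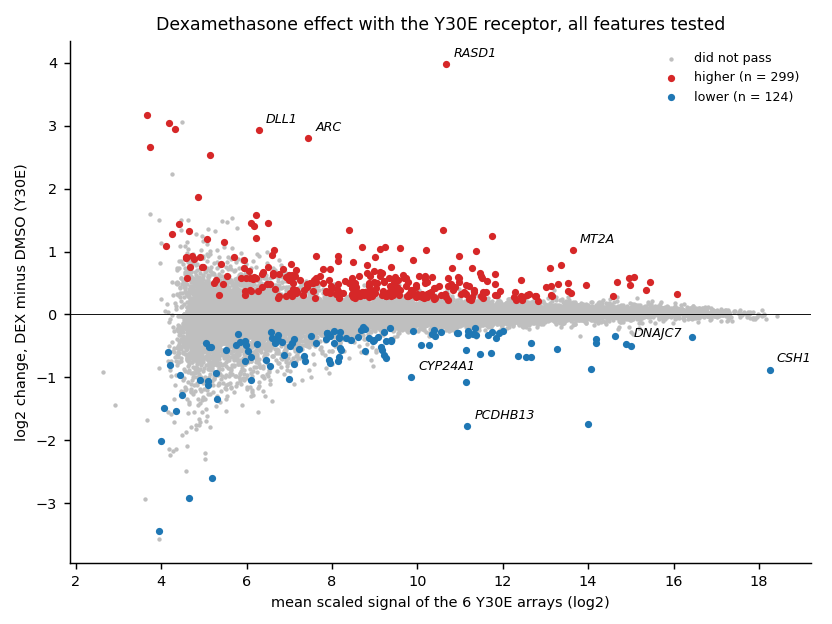
Log2 change with dexamethasone in Y30E cells (vertical axis, DEX minus DMSO) against the mean scaled signal of the 6 Y30E arrays (horizontal axis, log2) for the 20037 features tested. Red points are the 299 higher features, blue points the 124 lower ones and grey points those that did not pass. Changes of over 2 (log2) in either direction are mostly at the dim end, apart from RASD1, ARC and DLL1.

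The arrays came on slides of 4, and this bears on every value below. Y30E-DMSO replicates 1 and 2 were on the second slide with 2 arrays of Y30F-DEX, while Y30E-DMSO replicate 3 shared the third slide with the 3 Y30E-DEX arrays. Set against replicate 3 alone, all 423 features kept the direction of their change, and 416 had at least 0.5 of its size (386 of the 391 bright features and 30 of the 32 others). The shared direction follows from the lack of overlap in all 423 and could not have come out otherwise. The change within the slide was larger than the fitted change for 141 features, 106 of the higher and 35 of the lower ones. Its median ratio to the fitted change was 0.94 for higher and 0.90 for lower features. Replicate 3 also enters the fitted change, so this is a description and not a second test. With slide as a block in the fit, 182 features passed (0.908%), 118 of them among the 423, and with the second slide left out, an alternative added after seeing the data, 71 passed. The part of the slide in the remaining calls was not tested. For each gene named below the change against replicate 3 alone, on the third slide, is the within-slide value.

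**Figure D2:**
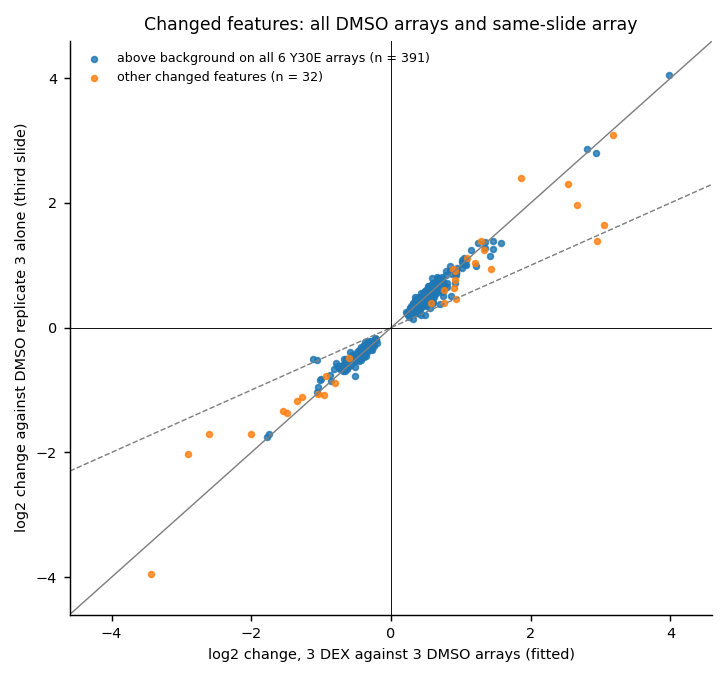
For the 423 changed features, the log2 change against Y30E-DMSO replicate 3 alone (vertical axis) is plotted against the fitted log2 change over all 3 DMSO arrays (horizontal axis). Blue points are the 391 bright features and orange points the 32 others, the solid line marks equal changes and the dashed line 0.5 of the fitted change. Every point lies in a quadrant where both changes share their sign, which follows from the lack of overlap between treatments. On the outer side of the dashed line lie 416.

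The transfected genes were read by probes for their human counterparts, which cannot separate construct from endogenous RNA, and the labels do not say whether these probes lie within the constructs. DNAJC7 (NM_003315) gave scaled signals of 34450, 36770 and 35860 on the 3 DMSO arrays and 26070, 24530 and 26800 on the 3 dexamethasone arrays. All dexamethasone arrays were lower than all DMSO arrays, as for 11.3% of all features. The change was -0.47 ± 0.052 (log2, SE, n = 3 against 3; limma adjusted p = 0.00114, and 0.0440 with slide as a block). The GR gene NR3C1 (NM_001018077) had 421, 413 and 429 under DMSO and 370, 398 and 349 with dexamethasone. That change of -0.18 ± 0.070 did not pass (limma adjusted p = 0.28), although the arrays did not overlap, as was the case for 22.6% of all features. Its other probe gave -0.14.

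Of the 19 genes in the list of GR, its HSP90 and HSP70 chaperones and their partners, 1 rose and 3 fell, with a median change of -0.06 (log2), against a median of -5e-04 over all features. Over all features 1.49% were higher and 0.619% lower. These shares and this median are the background for every list below. FKBP5 (NM_004117), the immunophilin that dampens hormone binding by GR and is itself a classic GR target, had signals of 1014, 1116 and 1046 under DMSO and 1603, 1613 and 1554 with dexamethasone. It rose by 0.59 ± 0.066 (limma adjusted p = 0.00126, block 0.0420), and another probe gave 0.60. HSPA1A (NM_005345), an inducible HSP70, fell from 23110, 23170 and 22970 to 13100, 12730 and 12280, a change of -0.86 ± 0.11 (limma adjusted p = 0.00259, block 0.0709). Its replicates lay close together in both groups, and 2 other probes gave -0.67 and -0.90. HSPA1A has a near-identical neighbour, HSPA1B, so the probes may read both. DNAJB1 (NM_006145), an HSP40 that feeds clients to HSP70, fell from 6675, 6303 and 6781 to 4358, 4347 and 3872, by -0.65 ± 0.054 (limma adjusted p = 2.18e-04, block 0.00756). The third fall was that of DNAJC7 above. HSP90AA1, HSP90AB1, HSPA8 and STIP1, an HSP70-HSP90 adaptor, had changes of 0.01, -0.14, -0.09 and -0.08 and did not pass.

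**Figure D3:**
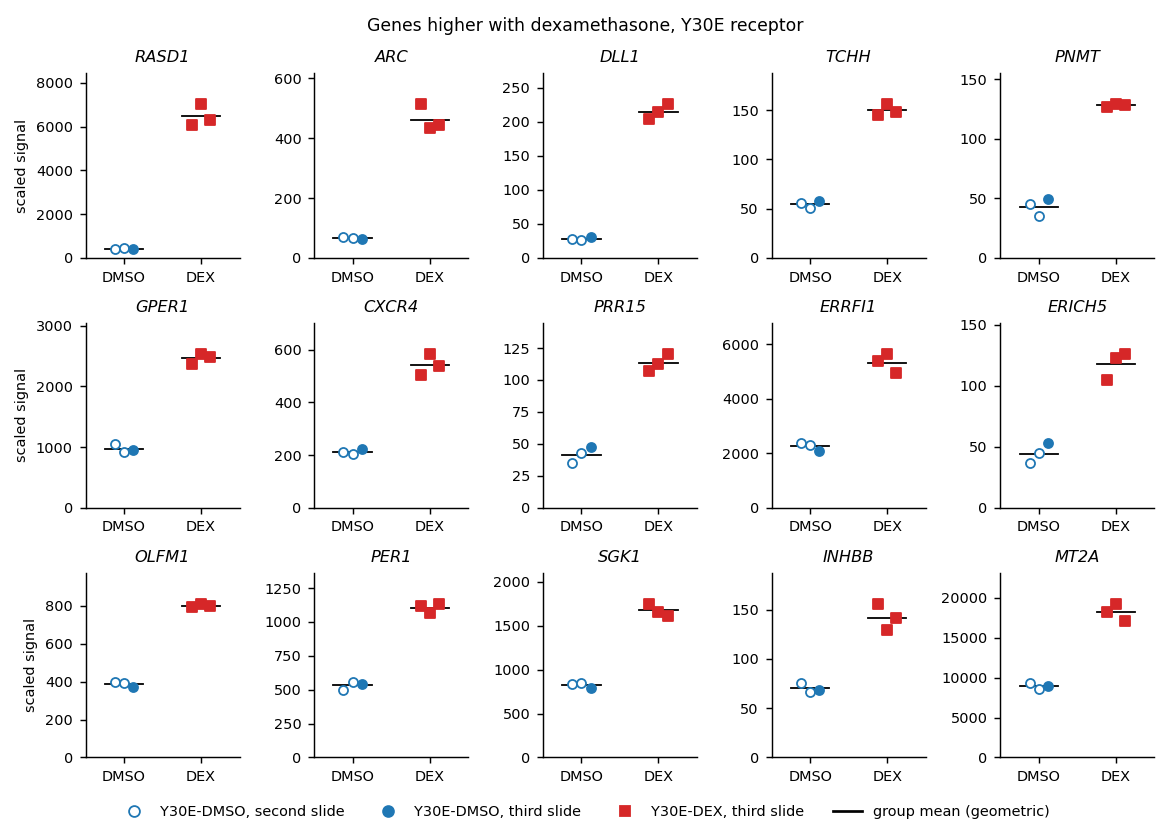
Scaled signal (vertical axes, linear, starting at 0) on each Y30E array for the 15 named bright genes with the largest rise by the smaller of the fitted and the within-slide change. Circles are DMSO arrays, open on the second slide and filled on the third, squares are dexamethasone arrays, and bars are geometric group means. Genes were chosen among those whose treatments do not overlap, so the 3 dexamethasone arrays lie above all 3 DMSO arrays in each panel. The filled circle is the highest DMSO array in 6 of the 15 panels.

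The largest rise of a bright feature was that of RASD1 (NM_016084), a Ras-like G protein named for its induction by dexamethasone. Its signals were 397, 454 and 390 under DMSO and 6095, 7038 and 6330 with dexamethasone, 15.7-fold or 3.97 ± 0.090 (log2, SE; limma adjusted p = 1.17e-08). The gap between the groups far exceeded the spread within either, the change within the slide was 4.05, and another probe gave 4.20. Of 26 glucocorticoid-induced genes tested from a list of 30 textbook targets, 14 rose and 1 fell, with a median of 0.52 (log2). These genes were listed because glucocorticoids raise them elsewhere, but with earlier results of these data known. Their counts and median are therefore a description and not an independent check. With slide as a block 10 rose and none fell, while without the second slide 8 rose.

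Apart from RASD1, the textbook targets measured in both groups that rose did so by 1.34-fold (ZBTB16) to 2.36-fold (ERRFI1), and SCNN1A was not well above background under DMSO. ERRFI1 (NM_018948), an inhibitor of the EGF receptor, rose from 2360, 2316 and 2089 to 5383, 5655 and 4955, a change of 1.24 ± 0.11 (limma adjusted p = 3.00e-04, within slide 1.35). SGK1 (NM_005627), the kinase that keeps epithelial sodium channels at the membrane, went from 837, 844 and 793 to 1752, 1659 and 1613, a change of 1.02 ± 0.076 (limma adjusted p = 8.72e-05, within slide 1.08). For neither gene did any array overlap with the other group, which held for all 423 changed features. KLF9 (NM_001206), a Kruppel-like repressor, had a change of 0.66 ± 0.058 (limma adjusted p = 2.86e-04, within slide 0.65). ZBTB16, a zinc finger repressor, changed by 0.42 ± 0.063, and GLUL, which makes glutamine, by 0.51 ± 0.086 (limma adjusted p = 0.00613 and 0.0142). Both lost their call with the slide block (adjusted p = 0.213 and 0.356). The members PDK4 (0.54 ± 0.13), PCK1 (0.42 ± 0.15), CEBPD (0.39 ± 0.10) and ZFP36 (0.26 ± 0.070) did not pass (limma adjusted p = 0.0672, 0.231, 0.0926 and 0.114). PCK1 is the gluconeogenic enzyme PEPCK, and ZFP36 destabilises cytokine mRNA. ANXA1, often cited as a mediator of glucocorticoids, had a change of -0.12 ± 0.082 and did not pass (limma adjusted p = 0.537). In the list of 20 Kruppel-like and C/EBP factors KLF9 was the only call, with a median of 0.00 (log2).

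Several strong rises were of genes that encode ligands, receptors and enzymes outside these lists. ARC (NM_015193), a cytoskeletal protein best known from synapses, had signals of 69.8, 65.9 and 63.1 under DMSO and 514, 432 and 443 with dexamethasone. It rose 6.97-fold, by 2.80 ± 0.073 (limma adjusted p = 2.57e-08, within slide 2.87). DLL1 (NM_005618), a Notch ligand, rose from 28.0, 25.8 and 30.8 to 204, 215 and 226, by 2.93 ± 0.10 (limma adjusted p = 3.46e-07, within slide 2.80). Both genes were dim without hormone and clearly separated with it, on every array.

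Receptors at the cell surface were among the rises. GPER1 (NM_001039966), a G protein-coupled oestrogen receptor, went from 1045, 917 and 956 to 2370, 2536 and 2488, by 1.34 ± 0.065 (limma adjusted p = 4.97e-06). CXCR4 (NM_001008540), the receptor for the chemokine CXCL12, went from 213, 204 and 223 to 503, 585 and 538, by 1.34 ± 0.079 (limma adjusted p = 1.54e-05). Within the slide their changes were 1.37 and 1.28. INHBB (NM_002193), a subunit of activin and inhibin, rose from 75.3, 66.6 and 68.4 to 156, 129 and 142, by 1.02 ± 0.14 (limma adjusted p = 0.00341, block 0.0395), and its other probe gave 0.81. OLFM1 (NM_006334), a secreted olfactomedin, rose from 398, 394 and 369 to 791, 811 and 797, by 1.05 ± 0.075 (limma adjusted p = 6.72e-05).

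The remaining members of the 15 were dimmer. TCHH, trichohyalin of the hair follicle, had DMSO signals of 50.3 to 57.4 and dexamethasone signals of 145 to 156, and PRR15 had 34.8 to 47.2 and 107 to 120. Their changes were 1.46 ± 0.076 and 1.45 ± 0.13 (limma adjusted p = 7.32e-06 and 3.08e-04). PNMT, which converts noradrenaline to adrenaline, had 35.5 to 49.9 against 127 to 129, and ERICH5 had 36.7 to 53.1 against 105 to 126. PNMT changed by 1.57 ± 0.27 and ERICH5 by 1.41 ± 0.19 (limma adjusted p = 0.0154 and 0.0033), and both lost their call with the slide block (adjusted p = 0.307 and 0.117). In both, DMSO replicate 3 was the highest DMSO array, and the within-slide changes were 1.36 and 1.15.

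Metallothioneins, small cysteine-rich proteins that bind zinc and copper, were among the rises at high signal. Of 13 genes in the list of metallothioneins and zinc transport, 6 rose and none fell, with a median of 0.25 (log2). MT2A (NM_005953) rose from 9303, 8514 and 8984 to 18250, 19260 and 17050, by 1.02 ± 0.062 (limma adjusted p = 1.77e-05, within slide 1.02), and 2 other probes gave 1.14 and 1.02. MT1H rose from 29150, 27570 and 27730 to 43000, 43350 and 41640, by 0.60 ± 0.050 (limma adjusted p = 2.18e-04). For both genes every dexamethasone array exceeded every DMSO array by a margin wider than either group's range. MT1X, MT1B, MT1G and MT1A rose by 0.58, 0.52, 0.52 and 0.38 (limma adjusted p = 0.00133, 0.00139, 0.00132 and 0.00953). The MT1 genes are near-identical copies whose probes may read each other, so these 5 rises are uncertain as separate observations, and another MT1G probe gave 0.17. MT1E had 0.25 ± 0.061 (limma adjusted p = 0.0712) and MT1M and MT3 had -0.11 and -0.03. The zinc sensor MTF1 had 0.04, and the zinc exporter SLC30A1 had -0.18 ± 0.069 and did not pass. The slide block left 5 rises in the list, and omission of the second slide 2.

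**Figure D4:**
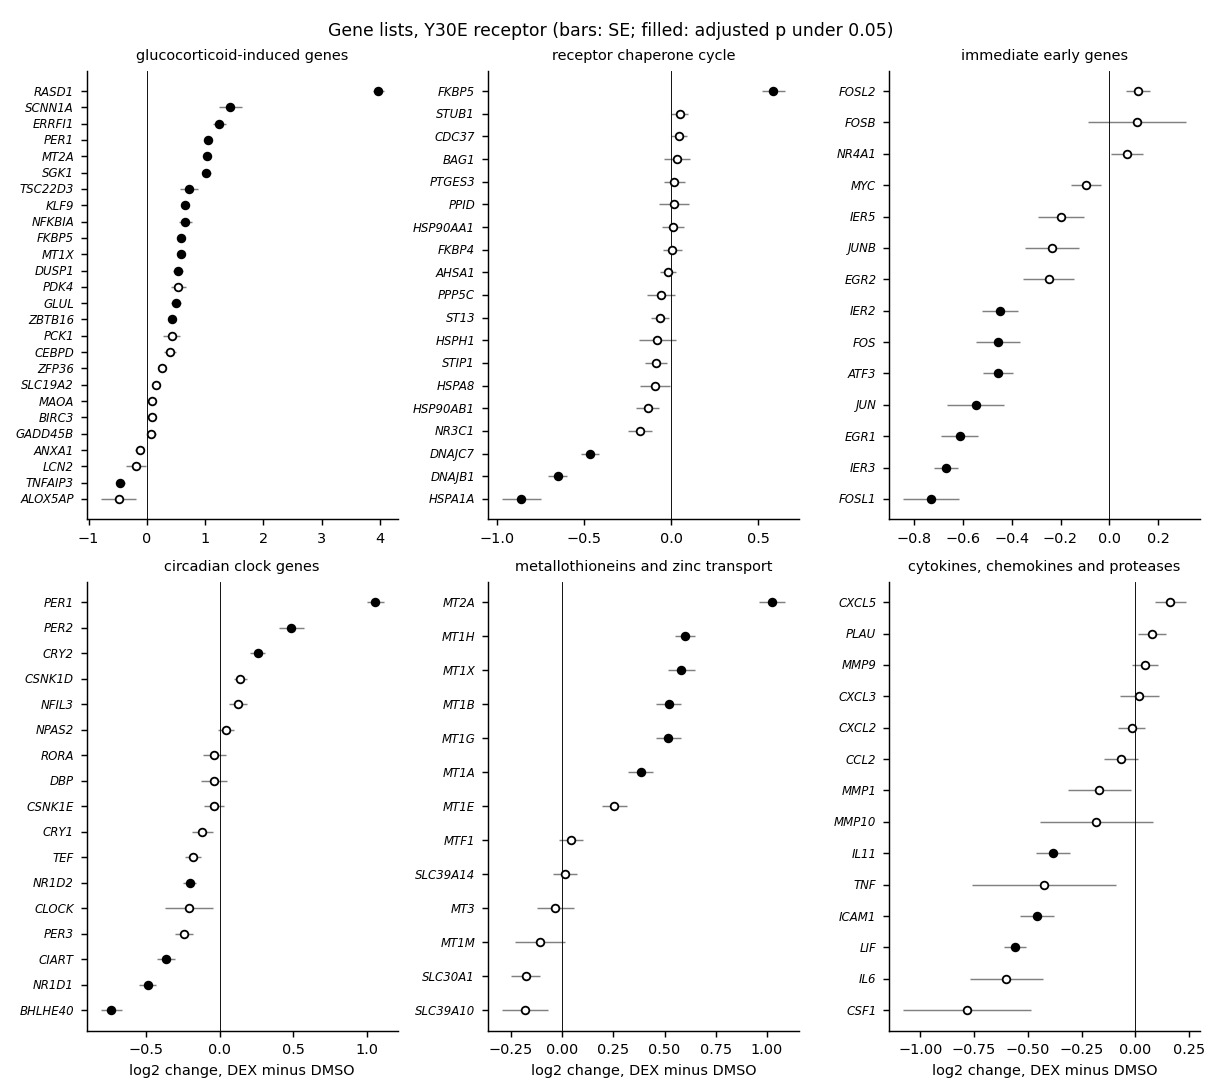
Log2 change with dexamethasone in Y30E cells (horizontal axes) for the members tested of 6 gene lists, 1 gene per line, with bars for the standard error from limma. Filled circles passed the test and open circles did not. RASD1 exceeds the other glucocorticoid-induced genes at 3.97, SCNN1A is drawn at its fitted value although it was not well above background under DMSO, the 7 immediate early genes that passed all lie below 0, and the 7 clock genes that passed fall on both sides.

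In the clock, PER and CRY proteins repress their own activators, NR1D1 and NR1D2 (REV-ERB) repress BMAL1, and BHLHE40 (DEC1) and CIART are further repressors. Of 17 clock genes tested, 3 rose and 4 fell, with a median of -0.04 (log2). PER1 (NM_002616) rose from 496, 557 and 545 to 1116, 1068 and 1136, by 1.06 ± 0.056 (limma adjusted p = 7.32e-06, within slide 1.02). The DMSO and dexamethasone arrays of PER1 formed 2 narrow, separate groups. PER2 rose by 0.49 ± 0.086 and CRY2 by 0.26 ± 0.053 (limma adjusted p = 0.0170 and 0.0383), and neither kept its call with the slide block (adjusted p = 0.338 and 0.624). A further PER2 probe gave -0.24, so the PER2 probes disagree. BHLHE40 (NM_003670) fell from 370, 388 and 342 to 227, 223 and 208, by -0.74 ± 0.072 (limma adjusted p = 4.95e-04, within slide -0.64). NR1D1 (NM_021724) fell from 1314, 1290 and 1277 to 909, 936 and 914, by -0.49 ± 0.060 (limma adjusted p = 0.00189, within slide -0.47). Neither gene had overlapping arrays, which held for all 423 changed features and adds nothing to the calls. CIART changed by -0.36 ± 0.061 and NR1D2 by -0.21 ± 0.045 (limma adjusted p = 0.0132 and 0.0462), and NR1D2 lost its call with the block (adjusted p = 0.295). The members PER3, TEF, CLOCK and DBP had -0.24, -0.18, -0.21 and -0.04 and did not pass. The slide block left 1 rise and 3 falls, and without the second slide PER1 alone was called.

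Among 16 genes of renal salt and water transport, 3 rose and none fell, with a median of 0.07 (log2). Besides SGK1, HSD11B2 rose, the enzyme that inactivates cortisol in the distal nephron. Its signals were 605, 640 and 658 under DMSO and 871, 819 and 886 with dexamethasone. The change of 0.44 ± 0.081 (limma adjusted p = 0.0214) lost its call with the slide block (adjusted p = 0.304). SCNN1A, the alpha subunit of the epithelial sodium channel, was well above background on 3 of 3 dexamethasone arrays, at 40.6, 34.1 and 31.4, and on 0 of 3 DMSO arrays. It was therefore at least 1.85-fold higher with dexamethasone, or at least 1.72-fold against DMSO replicate 3 alone, with the bound taken as described for such features below (limma adjusted p = 0.00376). The call was lost with the slide block (adjusted p = 0.0557). Its p-values rest on DMSO signals that were not well above background, and the limit given below for such features applies. SCNN1B, WNK4 and NEDD4L had 0.46 ± 0.15, -0.31 ± 0.079 and -0.08 ± 0.068 and did not pass.

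Of 19 genes of fuel use and insulin signalling, 2 rose and 1 fell, with a median of 0.06 (log2). IRS2, a docking protein of the insulin receptor, rose by 0.39 ± 0.051 (limma adjusted p = 0.00288, block 0.0991), and its 2 other probes disagreed at 0.28 and -0.25. GLUL was the other rise. TXNIP, an inhibitor of thioredoxin and of glucose uptake, fell from 1555, 1510 and 1524 to 1193, 1278 and 1136, by -0.35 ± 0.063 (limma adjusted p = 0.0191, block 0.278). The arrays did not overlap, as in all 423 changed features. FOXO1 had 0.28 ± 0.070 (limma adjusted p = 0.0779) and CPT1A 0.98 ± 0.48 with a wide error. Of 21 sterol and fatty acid synthesis genes none passed by limma (2 had an unadjusted p under 0.05), with a median of -0.02 (log2), and their changes ran from -0.19 (ABCA1) to 0.10 (HMGCS1).

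Among 14 genes that restrain inflammatory signalling, 3 rose and 1 fell, with a median of 0.12 (log2). NFKBIA (NM_020529), which holds NF-kB in the cytoplasm, rose from 2302, 2261 and 2152 to 3298, 3925 and 3413, by 0.66 ± 0.11 (limma adjusted p = 0.0106, block 0.123). DUSP1 (NM_004417), a phosphatase of MAP kinases, rose from 4967, 4634 and 4199 to 6817, 7049 and 6180, by 0.54 ± 0.089 (limma adjusted p = 0.0116, block 0.0472). In both, the lowest dexamethasone array was above the highest DMSO array, as in all 299 higher features. TSC22D3 (NM_004089), the leucine zipper protein GILZ, rose from 195, 196 and 185 to 335, 320 and 298, by 0.73 ± 0.15 (limma adjusted p = 0.0393, block 0.309). TNFAIP3, which encodes the ubiquitin editor A20, fell from 321, 322 and 290 to 237, 220 and 222, by -0.46 ± 0.074 (limma adjusted p = 0.0106, block 0.304), and another probe gave -0.11. It was the only textbook target to fall. DUSP1 alone of these passed with the slide block.

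The genes such brakes act on were mostly dim, and 14 of 27 cytokines, chemokines and proteases could be tested. Of these none rose and 3 fell, with a median of -0.17 (log2) that turned to 0.04 within the slide. LIF (NM_002309), a cytokine of the IL-6 family, fell from 722, 704 and 693 to 501, 472 and 464, by -0.56 ± 0.051 (limma adjusted p = 3.31e-04, block 0.0252). The same family's IL11 fell by -0.38 ± 0.080 and the adhesion molecule ICAM1 by -0.46 ± 0.079 (limma adjusted p = 0.0383 and 0.0143), and both lost their call with the block (adjusted p = 0.184 and 0.118). IL6, CSF1, TNF and CCL2 had -0.60 ± 0.17, -0.78 ± 0.30, -0.42 ± 0.34 and -0.07 ± 0.081 and did not pass (limma adjusted p = 0.137, 0.271, 0.617 and 0.764).

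Immediate early genes, which encode AP-1 subunits and other factors switched on within minutes of a stimulus, were lower with dexamethasone in 7 of 14 cases, and none was higher. Their median change was -0.35 (log2), and -0.37 within the slide. IER3 (NM_003897), a stress-responsive survival gene, fell from 7609, 7483 and 7516 to 4798, 4615 and 4810, by -0.67 ± 0.049 (limma adjusted p = 8.02e-05, within slide -0.67). EGR1 (NM_001964), a zinc finger factor, fell from 4011, 4268 and 4198 to 2805, 2705 and 2650, by -0.61 ± 0.076 (limma adjusted p = 0.00204, within slide -0.63). In these genes the spread of either group was small beside the gap. Among AP-1 subunits, FOSL1, JUN and FOS passed, while JUNB, FOSL2 and FOSB did not. FOSL1 (NM_005438) fell from 122, 114 and 105 to 77.2, 63.9 and 64.8, by -0.73 ± 0.11 (limma adjusted p = 0.00869), and a second probe gave -1.11. JUN (NM_002228) fell from 12530, 11680 and 11360 to 7374, 7836 and 9233, by -0.55 ± 0.12 (limma adjusted p = 0.0430). FOS (NM_005252) fell from 115, 119 and 121 to 100, 78.7 and 81.1, by -0.46 ± 0.089 (limma adjusted p = 0.0289). Among the DEX arrays, replicate 3 was the highest for JUN and replicate 1 for FOS. ATF3 and IER2 fell by -0.46 ± 0.062 and -0.45 ± 0.075 (limma adjusted p = 0.00351 and 0.0128). JUNB, EGR2, MYC and NR4A1 had -0.23, -0.25, -0.10 and 0.07. IER3 and EGR1 passed with the slide block and the other 5 did not, and without the second slide 1 passed.

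**Figure D5:**
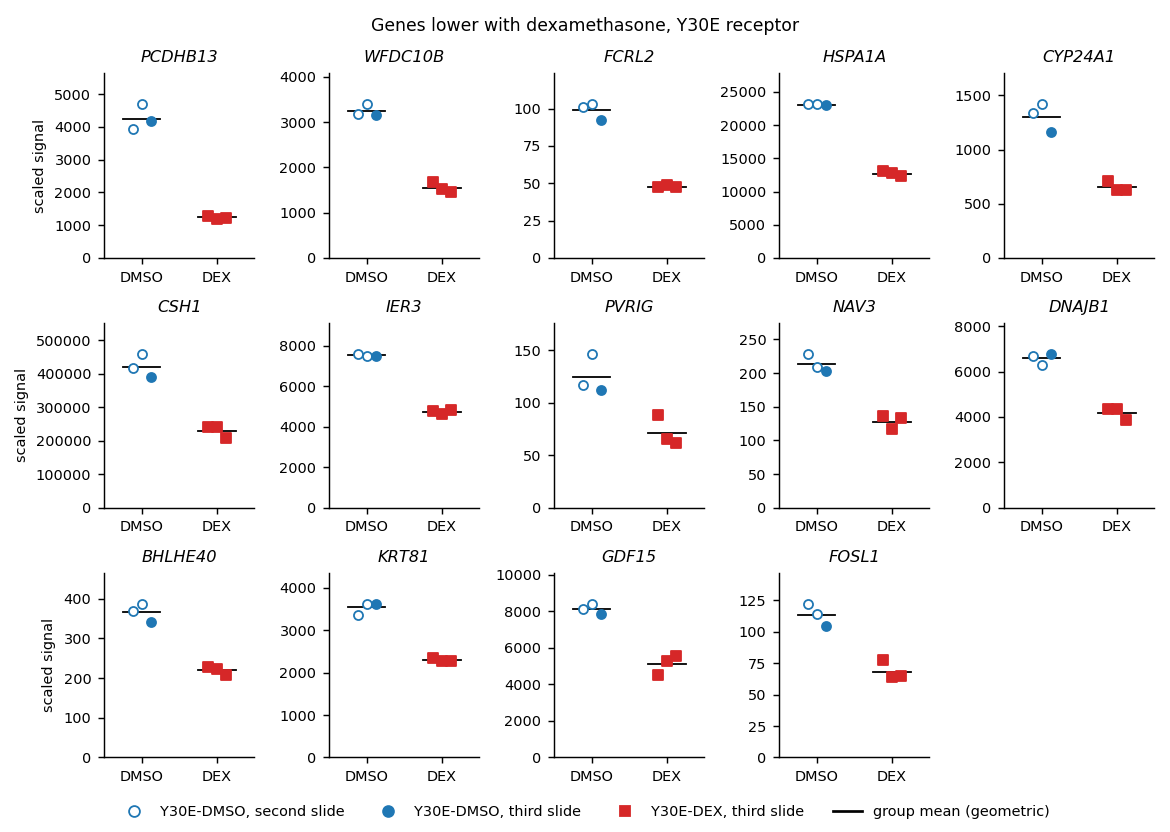
Scaled signal (vertical axes, linear, starting at 0) on each Y30E array for 14 of the 15 named bright genes with the largest fall by the smaller of the fitted and the within-slide change. Circles are DMSO arrays, open on the second slide and filled on the third, squares are dexamethasone arrays, and bars are geometric group means. Genes were chosen among those whose treatments do not overlap, so the squares lie below all circles in each panel. The filled circle is the lowest of the 3 DMSO arrays in 10 of the 14 panels. Of all features, 11.3% had the dexamethasone arrays below all DMSO arrays and 11.3% above them.

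The pathways that feed these factors gave few calls. Of 21 genes for EGF receptor ligands and MAP kinase brakes, 2 rose (ERRFI1 and DUSP1) and 2 fell, with a median of -0.10 (log2). The ligand HBEGF fell by -0.27 ± 0.057 and the phosphatase DUSP14 by -0.21 ± 0.044 (limma adjusted p = 0.0372 and 0.0377), neither with the slide block (adjusted p = 0.405 and 0.509). DUSP4, DUSP5 and DUSP6, phosphatases that MAP kinase activity itself induces, had -0.38 ± 0.089, -0.31 ± 0.12 and -0.20 ± 0.17 and did not pass. Of 22 TGF-beta and BMP genes, 3 fell and none rose, with a median of 0.03 (log2). CCN1, a matricellular protein, fell from 104600, 97890 and 97830 to 80890, 80780 and 73450, by -0.35 ± 0.059 (limma adjusted p = 0.0123). The inhibitory SMAD7 fell by -0.23 ± 0.049 (limma adjusted p = 0.0382). The calls of CCN1 and SMAD7 were lost with the slide block (adjusted p = 0.279 and 0.525). CCN2 had -0.21 ± 0.072 and did not pass.

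In the list of 22 cell cycle genes, 1 rose and 2 fell, all inhibitors of cyclin-dependent kinases, with a median of -0.06 (log2). The inhibitors CDKN1B, CDKN2C and CDKN2D, also in the list, did not pass. CDKN1C, which encodes p57, rose from 12900, 13220 and 14300 to 18070, 19410 and 18680, by 0.48 ± 0.054 (limma adjusted p = 0.00131, block 0.0626). CDKN1A (p21) fell from 2180, 2258 and 2172 to 1818, 1760 and 1834, by -0.29 ± 0.049, and CDKN2B (p15) by -0.36 ± 0.062 (limma adjusted p = 0.0143 and 0.0142). The falls of CDKN1A and CDKN2B did not pass with the block (adjusted p = 0.267 and 0.272). The cyclins CCND1 and CCNB1 had -0.13 and -0.05. Of 17 death and survival genes 3 rose, all BH3-only proteins that promote apoptosis, with a median of 0.03 (log2). PMAIP1 and BBC3, BH3-only genes of the same list, were not called. BCL2L11 (BIM) rose from 1321, 1440 and 1404 to 2030, 2077 and 2109, by 0.58 ± 0.080 (limma adjusted p = 0.00414, block 0.112), but 2 other probes gave 0.02 and 0.07. BIK rose by 0.38 ± 0.080 and the dim BMF, well above background on 2 of 3 DMSO arrays, by 0.75 ± 0.14 (limma adjusted p = 0.0407 and 0.0191), neither with the block (adjusted p = 0.565 and 0.375). BCL2 and BCL2L1, which prevent apoptosis, had 0.03 and -0.01.

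The largest fall of a bright named gene was that of PCDHB13 (NM_018933), a protocadherin of the beta cluster, which mediate homophilic adhesion. Its signals were 3934, 4702 and 4172 under DMSO and 1289, 1203 and 1231 with dexamethasone, 3.43-fold lower or -1.78 ± 0.15 (limma adjusted p = 2.18e-04, within slide -1.75). Of the 4 genes of the cluster that could be tested 1 fell and none rose, with a median of -0.63 (log2). PCDHB7 had -1.10 ± 0.26 at dim signals (limma adjusted p = 0.0712, and past the threshold with slide as a block), and PCDHB8 and PCDHB11 had -0.04 and -0.16. The beta protocadherins are close copies, so which of them the PCDHB13 probe reads in monkey RNA was not tested. Among 24 cytoskeleton and adhesion genes, 1 rose and 1 fell, with a median of -0.02 (log2). CLDN1, a claudin of tight junctions, fell by -0.43 ± 0.067 (limma adjusted p = 0.00909). It did not pass with the block (adjusted p = 0.239).

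Other falls were of a secreted inhibitor, a vitamin D enzyme and hormones. WFDC10B (NM_172006), a member of the WAP family of secreted protease inhibitors, fell from 3173, 3399 and 3156 to 1683, 1524 and 1447, by -1.07 ± 0.13 (limma adjusted p = 0.00164, within slide -1.03). CYP24A1 (NM_000782), which degrades active vitamin D, fell from 1340, 1421 and 1161 to 709, 625 and 628, by -0.996 ± 0.088 (limma adjusted p = 3.05e-04), and its second probe gave -0.98. Replicate 3 was its lowest DMSO array, and the within-slide change was -0.83. CSH1 (NM_001317), placental lactogen, had signals of 417800, 459500 and 389400 under DMSO and 240800, 240400 and 209100 with dexamethasone. It fell by -0.88 ± 0.099 (limma adjusted p = 0.00126, within slide -0.76), and 3 other probes of the record gave -0.21, -0.31 and -0.62. CSH1 has near-identical copies in the growth hormone cluster, and what this probe reads in transfected COS-1 cells was not tested.

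A cytokine, structural genes and receptors were among the other falls. GDF15, a stress-induced cytokine, fell from 8154, 8433 and 7878 to 4537, 5310 and 5533, by -0.67 ± 0.091 (limma adjusted p = 0.00351). NAV3, which binds microtubule ends, changed by -0.73 ± 0.082, and KRT81, a hair keratin with near-identical copies, by -0.63 ± 0.11 (limma adjusted p = 0.00121 and 0.0152). GDF15 and KRT81 missed the threshold with the slide block (adjusted p = 0.0651 and 0.0826). FCRL2, an Fc receptor-like protein of B cells, had signals of 101, 103 and 92.5 and then 47.2, 48.6 and 47.7, a change of -1.05 ± 0.22 (limma adjusted p = 0.0373, block 0.0303). PVRIG, an inhibitory receptor of lymphocytes, had 117, 147 and 112 and then 88.0, 65.4 and 61.6, a change of -0.81 ± 0.16 (limma adjusted p = 0.0329, block 0.336). These signals were dim, and PTPRC, the pan-leukocyte marker, did not rise above background on any of the 6 arrays.

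Some features had no gene name. The probe A_23_P300563 fell from 31510, 29360 and 29380 to 8569, 9106 and 9266, by -1.74 ± 0.077 (limma adjusted p = 2.37e-06, within slide -1.71), with a size close to that of PCDHB13. The non-coding record NR_110458 fell from 183, 202 and 160 to 87.2, 85.5 and 94.8, by -1.02 ± 0.18 (limma adjusted p = 0.0146). NM_001007538 and NR_002770 rose by 1.21 ± 0.12 and 1.14 ± 0.17 (limma adjusted p = 6.67e-04 and 0.0067), the latter not with the slide block (adjusted p = 0.0721). No array of these 4 overlapped with the other group, which was a condition of their choice.

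A further set was well above background on all 3 arrays of one treatment and on no array of the other, so only a lower bound of the fold can be given. Such features could pass the filter through the group where they were high. Their p-values use signals of the other group that were not well above background. These p-values are therefore given as description and not as support. For the bound, each array of the dimmer group was taken at its own signal or at the lowest signal that counted as well above background there, whichever was higher. The bound rests on all 3 DMSO arrays and is not adjusted for offsets between slides, and against DMSO replicate 3 alone it was lower for 6 of the 8 features named here. SLCO2B1, an organic anion transporter, was at least 4.51-fold higher with dexamethasone, where it had signals of 88.8, 88.1 and 80.8 (limma adjusted p = 5.06e-04, block 0.0302). WDFY4 was at least 2.11-fold higher, and the unnamed AF085920 and NR_120340 at least 2.88-fold and 2.76-fold (limma adjusted p = 0.0117, 0.0305 and 0.0225). Against DMSO replicate 3 the bounds of these 4 were 4.20-fold for SLCO2B1, 1.96-fold for WDFY4, 2.61-fold for AF085920 and 2.57-fold for NR_120340. The calls of WDFY4, AF085920 and NR_120340 were lost with the slide block (adjusted p = 0.221, 0.455 and 0.417). MYH2, a myosin heavy chain of fast muscle, was well above background under DMSO alone, at 46.5, 39.6 and 72.6, and at least 2.48-fold lower with dexamethasone (limma adjusted p = 0.0277, block 0.0474). MS4A5 was at least 2.01-fold lower (limma adjusted p = 0.0203, block 0.115), and THC2689970 and THC2667587 at least 4.39-fold and 3.32-fold (limma adjusted p = 0.0107 and 0.0305, block 0.00328 and 0.239). For the THC features, DMSO replicate 3 was the lowest DMSO array, at 48.5 against 119 and 128 and at 37.0 against 88.2 and 98.5, and against it alone the bounds were 2.35-fold and 1.79-fold.

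Housekeeping genes gave no call by limma among 15 tested, with a median of 0.01 (log2) and changes from -0.09 (B2M) to 0.28 (GUSB, with an SE of 0.14). None of the 15 had an unadjusted p under 0.05 either. ACTB had 0.07 ± 0.051, GAPDH -0.02 ± 0.049 and TBP 0.01 ± 0.075.

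The Y30E effect was set against that of the Y30F receptor, which uses 6 other arrays and in which 1.82% of features passed. The difference of the effects, Y30E minus Y30F, passed for 0 of 20037 features by limma (lowest adjusted p = 0.0599), and before adjustment 2255 features had a p under 0.05. This count depended on the fit and on single arrays: it was 18 with slide as a fixed block, 125 without Y30E-DMSO replicate 3, 1130 without Y30F-DEX replicate 1 and 2146 with array weights. The 95% interval of the difference excluded 0 for 81 of the 423 features and lay within 2-fold either way for 384. The 423 were chosen by their Y30E change in the same fit, so both counts are descriptions. For RASD1 the Y30F change was 3.82 and the difference 0.15 (95% interval -0.13 to 0.43), and for PER1 the difference was 0.15 (-0.02 to 0.33). For FKBP5, SGK1, MT2A and PCDHB13 the Y30F changes were 0.65, 1.25, 0.92 and -1.97. DLL1 rose by 2.93 with Y30E and by 2.17 with Y30F, a difference of 0.77 (0.44 to 1.09; limma adjusted p = 0.166). Its Y30F-DMSO signals of 41.8, 38.3 and 34.2 were above those of Y30E-DMSO, and its dexamethasone signals were 188, 177 and 150.

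The next counts are also descriptions, since the features were chosen by their Y30E change, and the contrast between lower and higher features was not tested. Of the 124 lower features 31 had a Y30F change above 0, 19 of them bright, and 6 of the 299 higher features had one below 0. FCRL2 was among the 31, at -1.05 with Y30E and 0.26 with Y30F, a difference of -1.30 (-1.99 to -0.62; limma adjusted p = 0.267). Its Y30F-DEX signals were 32.4 on the first slide and 64.8 and 57.4 on the second, which also held 2 of the 3 Y30E-DMSO arrays. With slide as a block its Y30F change was -0.35. NR_110458 showed the same layout, with 125 on the first slide and 222 and 192 on the second. Its difference of -1.54 (-2.09 to -0.99; limma adjusted p = 0.112) did not pass, and its Y30F change was 0.04 with the block. For PVRIG the difference was -1.04 (-1.56 to -0.52; limma adjusted p = 0.242). The part of the second slide in these differences was not tested further.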

How the data were processed

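Total RNA was labelled with Cy3 and hybridised to human whole-genome 1-colour Agilent arrays, per the labels. The deposited intensity values are processed green signals from Agilent Feature Extraction 12, with background subtraction and detrending inside an array and no scaling across arrays, per the file headers. Spot flags come from the same files, and the deposited series table held the same values (0 differed).

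Here the 75th percentile of the non-control spots (706 to 876 in signal) was subtracted from the log2 signals of an array. Spots of a probe were averaged, and 25570 probes were kept whose spots were at least 0.5 well above background on all arrays of a group. The probe with the highest mean stood for a record, and other probes of changed records moved the same way in 114 of 127 cases. Group means of all 12 arrays were fitted with limma 3.58.1 (R 4.3.3; 8 residual degrees of freedom; Benjamini-Hochberg over all features). The scripts were tested on simulated data.

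Symbols were assigned by hand to records and cover 313 of the 423 changed features. The members and lists were chosen with earlier results of these data known. Named genes were the 15 highest and 15 lowest bright changed genes. They were ranked by whichever of the fitted change and that against Y30E-DMSO replicate 3 was nearer to 0. These genes and the unnamed features had to show no overlap between treatments and the same sign against replicate 3. Also named were list members that passed with up to 4 that did not, up to 4 one-sided features per direction and up to 2 unnamed ones. A few of the genes so chosen are not reported here, and a few further list members are given by value. Other scalings, background correction, filters, slide and replicate blocks, array weights and left-out arrays were tried.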

Additional observations from a re-analysis of the deposited data

How the results depend on the processing

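Counts of changed features, bright changed features and changes with at least 0.5 of their size on the third slide are given in that order. They were 259, 224 and 259 with no filter on dim probes, 182, 150 and 182 with slide as a fixed block, 47, 28 and 47 within the third slide, 2324, 2089 and 1395 with array weights, and 71, 56 and 71 without the second slide, an alternative added after seeing the data. Array weights were 1.86, 1.33 and 0.528 for Y30E-DMSO replicates 1 to 3 and 3.25, 0.781 and 0.669 for Y30E-DEX. Leaving out 1 array at a time gave 184 to 596, 176 to 522 and 184 to 508. Differences between the Y30E and Y30F effects, 0 as reported, numbered 18 with slide as a fixed block, 2146 with array weights, 3 without the second slide, 3 with the mean of the probes of a record, 1 with median centring and 0 to 1130 when 1 array was left out, with the highest count without Y30F-DEX replicate 1. The cause of these moves was not tested.

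With the replicate number as a block 308 features had changed, 285 of them bright and 305 with at least 0.5 of their size on the third slide, and 1 difference passed. Deviations of same-numbered samples had correlations of 0.00254, -0.0519 and -0.014, so the numbers were not taken to pair the samples. The count of changed features stayed between 305 and 500 under quantile normalization (455), median centring (348), normexp (345), a filter on all 12 arrays (438), the mean of probes (395), slide as a random block (402), the Y30E arrays alone (305), a trended robust prior (500) and the series table (423). Scaling moved the median change of all features by at most 0.0527 (log2), and none of the 423 changed direction with it.

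Of 86 named features, 12 passed under all 28 alternatives: RASD1, ARC, DLL1, TCHH, GPER1, PRR15, ERRFI1, OLFM1, PER1, SGK1, PCDHB13 and A_23_P300563. None reversed its direction in 2387 values. With slide as a fixed block 41 of the 86 passed, within the third slide 18, and without the second slide 21. Features that were not bright had a median standard error of 0.29 (log2), against 0.078 for bright ones.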

Other observations

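Several groups of genes outside the lists above drew attention only after their values had been seen, so they are given as values and support nothing. Vitamin D genes moved apart. VDR (NM_001017535), the vitamin D receptor, rose from 373, 365 and 383 to 684, 723 and 709, by 0.92 ± 0.048 (limma adjusted p = 7.32e-06, within the third slide 0.88), while CYP24A1 fell by -0.996. RXRA, the partner of VDR, had 0.12 ± 0.045, and CYP27B1, which makes the active hormone, -0.17 ± 0.24. Of 7 Notch pathway genes DLL1 and NOTCH4 rose, the latter by 0.49 ± 0.072 (limma adjusted p = 0.00613, block 0.0296). The receptors NOTCH1 and NOTCH2 had 0.03 and 0.05, the ligand JAG1 -0.06 and the target HES1 -0.13 ± 0.047, and none of these passed. Both Snail repressors rose, SNAI1 by 0.62 ± 0.057 and SNAI2 by 0.50 ± 0.093 (limma adjusted p = 3.52e-04 and 0.0214), though SNAI2 not with the slide block (adjusted p = 0.454). CDH1, a gene they are known to repress, had 0.20 ± 0.082 and did not pass.

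Secreted factors changed in both directions. The neurotrophin NTF3 rose from 154, 164 and 158 to 228, 230 and 241, by 0.56 ± 0.055 (limma adjusted p = 5.06e-04). EDN1, endothelin, rose by 0.44 ± 0.086, while the natriuretic peptide NPPB fell by -0.64 ± 0.077 and the hormone FGF21 by -0.52 ± 0.094 (limma adjusted p = 0.0297, 0.00171 and 0.0175). These last 3 calls were lost with the slide block (adjusted p = 0.167, 0.072 and 0.352). HTRA3, a secreted protease, rose from 1908, 1741 and 1935 to 3579, 3693 and 3967, by 1.01 ± 0.059 (limma adjusted p = 1.54e-05, block 0.00217). KCNH2, a potassium channel of the heart, rose by 0.93 ± 0.060, NDRG1, a stress-responsive gene, by 0.73 ± 0.050, and RGS2, a brake on G protein signalling, by 0.56 ± 0.050 (limma adjusted p = 3.38e-05, 5.34e-05 and 3.07e-04), and these 3 also passed with the slide block (adjusted p = 0.00294, 0.00618 and 0.00734).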
